A study of Mus musculus with 2 samples.

Results

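Imprinted genes were examined on 2 mouse gene expression arrays. Both carried RNA of ES cells that lack their own Baf53a, which were kept alive by Baf53a itself on 1 array and by Baf53b on the other. The members were 39 well-known imprinted genes, taken as every gene probe whose RefSeq accession maps to one of their symbols. Of the 39, 38 had a probe, among 20823 genes with a symbol and a probe. H19 was not matched and was not analysed here. The 38 genes had 64 probes. The cells of both groups came from 1 clone of Baf53a conditional knockout (cKO) cells, made from E14 mouse ES cells. In this clone the Baf53a gene had been mutated by CRISPR/Cas9 and a tetracycline (Tet)-repressible Baf53a cDNA kept the cells alive. The cells were transfected with a vector for Myc-tagged Baf53a or for Myc-tagged Baf53b, and 48 h later Tet was given at 1 μg/mL for 6 days in medium with LIF. Baf53a is the form of this BAF complex subunit found in stem cells and Baf53b its neuronal counterpart. The comparison asked how far Baf53b in place of Baf53a left gene expression as it was, read here in genes whose activity depends on chromatin marks kept from the germ line. As each condition had 1 array and no replicate, nothing below was tested and p-values are absent.

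An imprinted gene is expressed mainly from the copy inherited from 1 parent. Most such genes lie in clusters, each governed by a stretch of DNA that carries methylation from only the egg or only the sperm, and a non-coding RNA made in the cluster often silences its neighbours in cis. In ES cells the zinc finger protein ZFP57 binds the methylated copy at a short motif and, with TRIM28 and DNA methyltransferases, keeps the mark through cell division. Many members control growth of the embryo and placenta. A probe measures the RNA of both parental copies together, so no value here tells which copy was expressed.

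Promoters of 4 members are shown, because Magel2 and Dio3 had the largest differences between the arrays and because Mest and Plagl1 are governed by an imprint at the promoter itself and hold the ZFP57 motif there. Each is the 250 bases before the transcription start on the + strand in the RefSeq table of GRCm38.p6. Their positions are chr6:30737800-30738049 for Mest, chr10:13090582-13090831 for Plagl1, chr7:62376729-62376978 for Magel2 and chr12:110278980-110279229 for Dio3. Capitals mark the hexamer TGCCGC or its other strand, GCGGCA, in Mest and Plagl1, and every CG in Magel2 and Dio3.
Mest: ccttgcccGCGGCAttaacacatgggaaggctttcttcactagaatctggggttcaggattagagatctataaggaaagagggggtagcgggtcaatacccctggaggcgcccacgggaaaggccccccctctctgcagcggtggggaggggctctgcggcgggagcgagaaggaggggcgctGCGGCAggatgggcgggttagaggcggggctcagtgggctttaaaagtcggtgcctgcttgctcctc
Plagl1: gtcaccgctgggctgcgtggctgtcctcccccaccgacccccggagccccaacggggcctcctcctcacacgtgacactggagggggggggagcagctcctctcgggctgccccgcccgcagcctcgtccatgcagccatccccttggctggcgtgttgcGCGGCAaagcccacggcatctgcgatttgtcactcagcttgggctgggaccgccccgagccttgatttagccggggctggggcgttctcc
Magel2: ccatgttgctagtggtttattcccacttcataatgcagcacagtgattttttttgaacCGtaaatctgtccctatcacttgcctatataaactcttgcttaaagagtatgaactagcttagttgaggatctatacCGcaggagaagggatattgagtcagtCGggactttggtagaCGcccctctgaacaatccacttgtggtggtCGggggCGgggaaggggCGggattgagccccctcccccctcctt
Dio3: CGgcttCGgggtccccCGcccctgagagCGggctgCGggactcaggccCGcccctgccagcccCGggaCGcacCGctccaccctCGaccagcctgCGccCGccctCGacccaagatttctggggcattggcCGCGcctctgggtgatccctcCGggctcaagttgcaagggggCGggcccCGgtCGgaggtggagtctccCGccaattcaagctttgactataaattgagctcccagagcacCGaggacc
The Mest stretch held 2 hexamers and 14 CG, and the Plagl1 stretch 1 hexamer and 19 CG. The Dio3 stretch held 21 CG and the Magel2 stretch 7, with no hexamer in either. The hexamer was searched on both strands of windows from 250 bases before to 50 after a start, and each match itself holds 1 CG. It occurred in windows of 9 of the 34 members whose windows were used (26.5%), against 13.1% of all 27025 genes. By window it occurred in 10 of 52 member windows (19.2%) against 11.6% of 32851 windows. Member windows held a median of 13 CG and all windows a median of 7. A match is a description of the letters and not a bound site. The 8 members with the hexamer that were measured on both arrays (Igf2, Mest, Snrpn, Meg3, Grb10, Plagl1, Nnat and Mcts2) had a median log2 difference of 0.03, with 4 above 0. The 24 measured members with a window and no hexamer had a median of 0.07, with 17 above 0. Over all genes measured on both arrays, 49.1% were above 0.

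Values are the processed signal of a spot, a brightness after background subtraction. Levels are its log2 with the 75th percentile of each array set to 0, which fell at a signal of 1161 for Baf53a-expressing cells and 1128 for Baf53b-expressing cells. Every difference given is the log2 level in Baf53b- minus that in Baf53a-expressing cells, and it is 0.04 above the log2 ratio of the printed signals. The arrays shared 1 slide and 1 scan, and 29247 of 39411 gene probes were well above background on both. The probe of Actl6b, the gene for Baf53b, went from a signal of 3.40, not well above background, to 119, at least 14.5-fold higher. The probe of Actl6a, the gene for Baf53a, gave 3806 and 3600, a difference of -0.04. It showed neither the added Baf53a of the first condition nor a lack of it in the other, and which part of the transcript it reads was not analysed here. The Baf53a side of the labels was therefore not checked by these arrays. All 14 ES cell markers were measured on both arrays, with differences from -0.15 to 0.08. Pou5f1, which encodes Oct3/4, gave 27167 and 24042, a difference of -0.13. The ends of that range were Esrrb (45769 and 39983) and Fbxo15 (55122 and 56603).

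Most imprinted genes, like most genes on the array, stood at nearly the same level in both cells. Of the 39 members, 36 were measured on both arrays, and 28 of these (77.8%) differed by less than 0.2, as did 80.5% of all genes. Differences ran from -0.24 for Cdkn1c to 0.45 for Dio3. Only Magel2 and Dio3, both expressed from the paternal copy, were at least 25% higher in Baf53b-expressing cells, a log2 difference of 0.32 or more. These 2 are 5.56% of the members measured, and 5.58% of all 16608 genes measured were as much higher, so the share of members was that of the array as a whole. No member was lower by the same 0.32, against 2.01% of all genes. No member was 2-fold higher or lower, against 0.102% and 0.0903% of all genes.

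The members as a group lay slightly above all genes. Their median difference was 0.07, against -0.0032 over all genes. Of the members, 24 (66.7%) were above 0 and 12 below, and 49.1% of all genes were above 0. The middle part of the members, between the quartiles, ran from -0.02 to 0.13, and that of all genes from -0.09 to 0.10. The standard deviation was 0.159 over the members and 0.188 over all genes. The group's median was 0.02 when both arrays were centred on their median, a setting under which the median of all genes was -0.05.

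**Figure D1:**
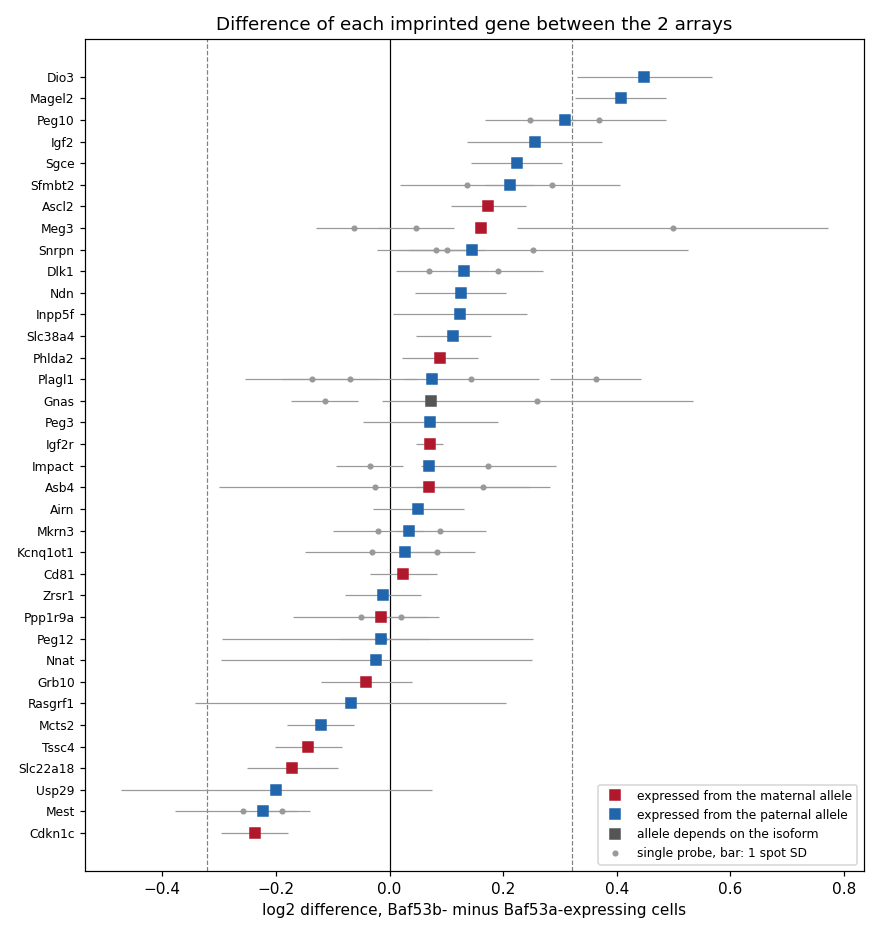
Log2 difference of each of the 36 imprinted genes measured on both arrays, Baf53b- minus Baf53a-expressing cells, 1 array each. Squares are gene values coloured by the expressed parental copy, grey dots are the single probes of genes with over 1 probe, grey bars are 1 spot SD either way, and dashed lines mark 0.32 either way, a 25% difference. Dio3 and Magel2 lie beyond the upper line, and no gene lies beyond the lower one.

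The error known for these values is that between spots of 1 array. From probes printed 10 times, the standard deviation of a difference between 2 single spots was 0.274 among the dimmest of 5 brightness groups and 0.0590 among the brightest. It covers spot noise only, not culture, RNA or labelling. Of the 54 member probes measured on both arrays, 10 (18.5%) lay over 2 such spot SD above 0, against 11.1% of all probes, and 6 (11.1%) lay as far below 0, against 11.3%. The 10 above belonged to Igf2, Peg10 (both probes), Sgce, Magel2, Ascl2, Dlk1, Dio3, Plagl1 and Sfmbt2. The 6 below belonged to Mest (both probes), Cdkn1c, Slc22a18, Tssc4 and Mcts2.

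Brightness moved with the difference on these arrays. The median difference of all probes was 0.10 in the dimmest brightness group, 0.02 in the middle one and -0.06 in the brightest. Of the 54 member probes, 8 lay in the dimmest group and 7 in the brightest, and the other groups held 15, 13 and 11. Set against the median of its own brightness group, the median member probe lay 0.07 higher, with 34 of the 54 above. Magel2 lay 0.39 above the median of its group, as did Dio3, and Cdkn1c lay at -0.17 relative to its group. The SD of the differences over all probes was 0.154 in the group of Magel2, 0.208 in that of Dio3 and 0.108 in that of Cdkn1c.

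**Figure D2:**
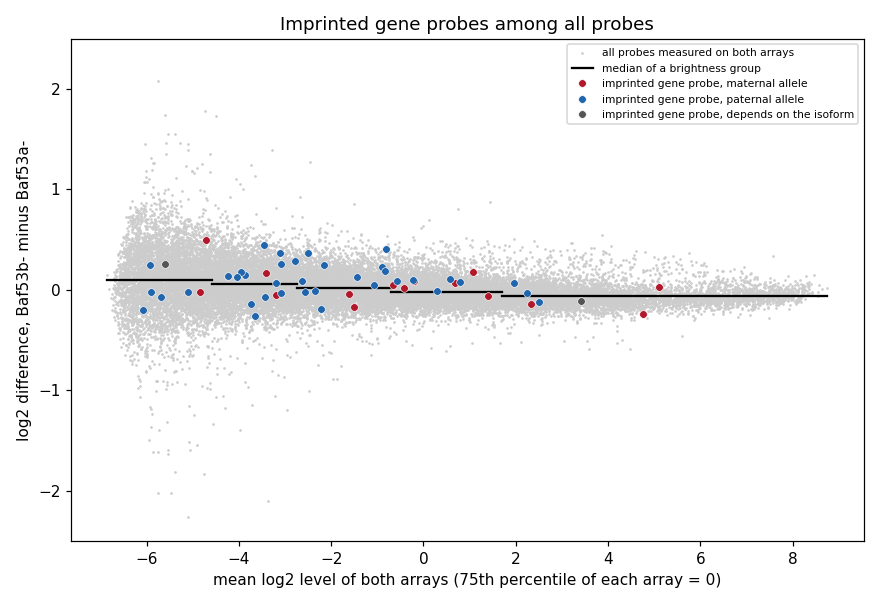
Log2 difference of all 29247 probes measured on both arrays (grey) against their mean log2 level, with the 54 probes of imprinted genes coloured by the expressed parental copy. Black lines are the medians of the 5 brightness groups, which pass from 0.10 among the dimmest to -0.06 among the brightest probes. The imprinted gene probes lie within the cloud of all probes.

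Members expressed from the paternal copy had a median difference of 0.07 over 24 genes, with 17 (70.8%) above 0. Members expressed from the maternal copy had a median of 0.02 over 11 genes, with 6 (54.5%) above 0, against 49.1% of all genes. Gnas, whose expressed copy depends on the isoform, stood at 0.07. The expressed copy was assigned from general knowledge, and which copy was expressed in these ES cells was not measured. By the parent that lays down the germline methylation, the 5 measured members marked in sperm had a median of 0.16 and the 28 marked in the egg 0.04. The sperm-marked genes were Igf2, Dlk1, Meg3, Dio3 and Rasgrf1, of which only Rasgrf1 was below 0. The 0.16 is the value of Meg3, and with the brightest probe per gene, which puts Meg3 below 0 too, the medians were 0.07 and 0.04. Slc38a4 and Sfmbt2, whose imprint rests on a histone mark in place of DNA methylation, stood at 0.11 and 0.21. None of these splits was tested, and with cyclic loess or centring on the median the maternal median was below 0. The median of all genes was -0.0057 and -0.0543 in these settings.

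**Figure D3:**
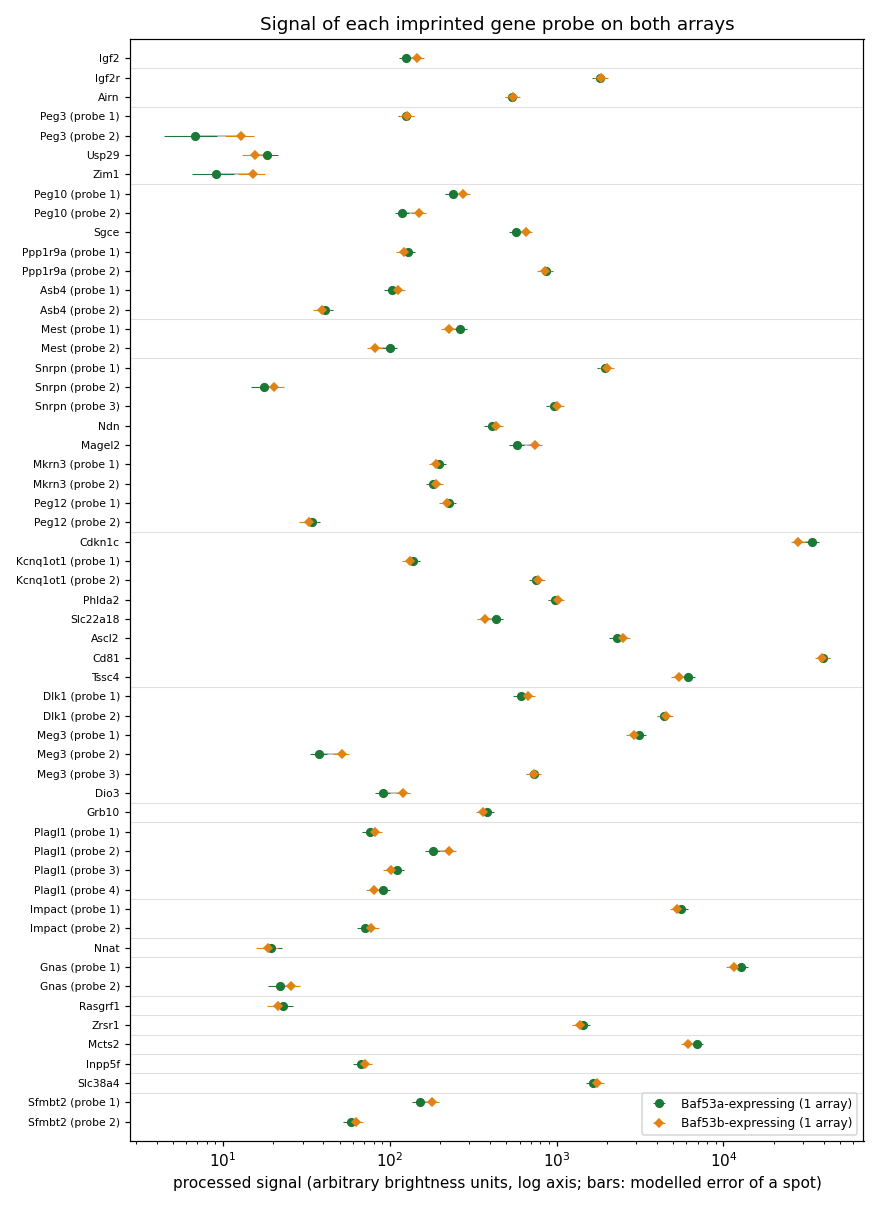
Processed signal (arbitrary units, log axis) of each imprinted gene probe that was well above background on at least 1 array, in Baf53a-expressing (circles) and Baf53b-expressing cells (diamonds), 1 array each. Bars are the error that the scanner software models for a spot, and thin lines part the imprinted domains. Most pairs overlap within their bars, and the pairs of Peg3 probe 2 and of Zim1 lie at the dim end, where only the Baf53b-expressing cells were well above background.

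The Dlk1-Meg3 domain on chromosome 12 carries a methylation mark from sperm, and all 3 of its members were above 0. Dio3, the deiodinase that inactivates thyroid hormone, gave a signal of 90.9 with Baf53a and 120.4 with Baf53b. This difference of 0.45, or 1.36-fold, was the largest of the members. At its brightness the spot SD was 0.12 and the SD of the differences over all probes 0.21. Over the alternative settings Dio3 ranged from 0.33 to 0.45, and a stricter filter on dim probes left it out. All of these values come from 1 probe with 1 spot per array. Dlk1, a transmembrane protein of the Notch ligand family that holds back differentiation, was measured by 2 probes. The first gave 609.7 and 676, and the second 4427 and 4515, so that the gene stood at 0.13. Meg3, the non-coding RNA made from the maternal copy of the domain, had 3 probes whose differences were unlike. The brightest gave 3132 and 2913, a difference of -0.06. The second gave 728 and 729.9, and the dimmest 37.5 and 51.5, a difference of 0.50 where the spot SD was 0.27. The gene value of 0.16 for Meg3 therefore rested on its dimmest probe, and with the brightest probe alone it was -0.06.

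The Snrpn-Ndn domain on chromosome 7, the mouse counterpart of the Prader-Willi region, had a median of 0.13, with 4 of its 5 members above 0. All 5 are expressed from the paternal copy. Magel2, a MAGE family partner of ubiquitin ligases, gave 578 with Baf53a and 745 with Baf53b. That is a difference of 0.41, or 1.33-fold. At its brightness the spot SD was 0.08 and the SD of the differences over all probes 0.15. Magel2 was over 25% higher in every alternative setting run, with values from 0.34 to 0.41. All settings read the same 1 probe with 1 spot per array, so their agreement adds no further measurement. Ndn, another MAGE protein, gave 409.9 and 434, a difference of 0.13. Snrpn, a protein of the splicing machinery whose promoter lies in the imprinting centre of the domain, had 3 probes, all above 0. These gave 1944 and 1998, 959 and 999.8, and 17.5 and 20.3, with differences of 0.08, 0.10 and 0.25. The remaining genes lay close to 0. Mkrn3, a ring finger protein, gave differences of -0.02 and 0.09 with its probes. Peg12, an intronless gene of the Frat family, gave 228 and 219.7, and 34.0 and 32.6. The 1 probe of Magel2 thus stood apart from the neighbouring genes, whose gene values ran from -0.02 to 0.14.

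In the Peg10-Sgce domain on chromosome 6, the 2 paternally expressed genes had larger differences toward Baf53b-expressing cells than the 2 maternally expressed ones. Peg10, a retrotransposon-derived gene that the placenta needs, gave 238 and 274 with one probe and 119 and 149 with the other. Its differences were 0.25 and 0.37, and the gene value of 0.31 lay just under the 25% threshold of 0.32. Sgce, which encodes epsilon-sarcoglycan and starts next to Peg10 on the opposite strand, gave 574 and 651, a difference of 0.22. The maternally expressed pair lay closer to 0. Ppp1r9a, the actin-binding protein neurabin, gave 129 and 121, and 865 and 852, with a gene value of -0.02. Asb4, a subunit of a ubiquitin ligase, gave 103 and 112, and 41.1 and 39.2, with a gene value of 0.07. Both probes of each of these genes fell on opposite sides of 0.

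Mest, a paternally expressed gene on the same chromosome that encodes a hydrolase-like protein of mesoderm and placenta, was one of the 2 lowest members. One probe, printed 10 times on each array, gave mean signals of 264 and 225. Its single spots ran from 241 to 284 (median 265, 10 spots) and from 211 to 243 (median 224, 10 spots). The ranges of the spots overlapped, between 241 and 243, and the standard deviation between spots was 0.0716 and 0.0770 on the log2 scale. The difference of that probe was -0.19, and a second probe with 100.4 and 81.6 gave -0.26. The last probe, at 9.63 and 11.4, was well above background on neither array. The gene value was -0.22 and lay between -0.27 and -0.06 over the settings, the last when dim probes were kept.

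Igf2r, the receptor that takes IGF2 out of circulation, was the other member whose probe was printed 10 times. Its spots ran from 1752 to 1901 (10 spots) with Baf53a and from 1814 to 1928 (8 spots left of 10) with Baf53b. The mean log2 level was 0.65 in the former and 0.72 in the latter, a difference of 0.07, and the spots overlapped. At each of the 8 places used on both arrays the scaled level was higher with Baf53b, but the signal before scaling was not higher at all of them. Spots of an array share an RNA sample. Over the settings the Igf2r difference ran from 0.02 to 0.11. Where Igf2r is imprinted, its paternal copy is silenced by Airn, a non-coding RNA that runs through Igf2r in antisense. Whether this held in these cells was not measured. One Airn probe gave 542 and 545, a difference of 0.05, and the other was not well above background on either array. Slc22a3, a cation transporter of the same domain on chromosome 17, was not well above background, with signals of 2.13 and 2.03. Igf2, the ligand of the receptor and a growth factor of the embryo, is expressed from the paternal copy in another domain on chromosome 7. Igf2 gave 126 and 146, a difference of 0.26 at a spot SD of 0.12, the 4th highest value of the members.

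**Figure D4:**
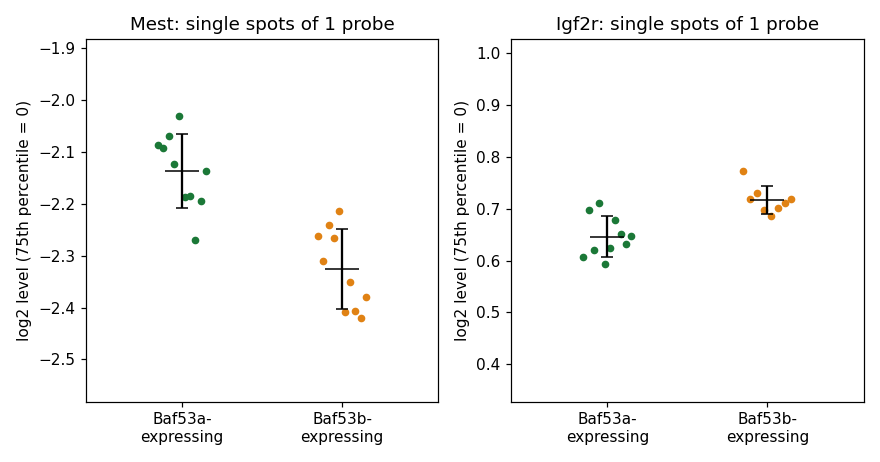
Log2 level (75th percentile of each array set to 0) of the single spots of the Mest and Igf2r probes printed 10 times per array, with the mean and SD between spots. Spots of 1 array share 1 RNA sample, so the spread is technical. Mest spots average -2.14 and -2.33 and overlap at their edges, and Igf2r spots average 0.65 and 0.72 and overlap.

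The Kcnq1ot1-Cdkn1c domain on chromosome 7 had a median of 0.02, with 4 of 7 members above 0. Kcnq1ot1, the paternally expressed non-coding RNA that silences the domain, gave 138 and 132 with one probe and 756 and 778 with the other, so that the gene stood at 0.03. Cdkn1c, a cyclin-dependent kinase inhibitor that limits growth, gave 34047 and 28059. Its difference of -0.24, or 1.18-fold lower, was the lowest of the members and ran from -0.29 to -0.17 over the settings. At its brightness the spot SD was 0.06 and the SD of the differences over all probes 0.11. Slc22a18, a transporter, gave 431 and 372, a difference of -0.17, and Tssc4, a protein of splicing particle assembly, 6127 and 5390.3, a difference of -0.14. Ascl2 and Phlda2 lay on the other side of 0. Ascl2, a transcription factor of the trophoblast, gave 2286 and 2505, a difference of 0.17, and Phlda2, which restrains placental growth, 981 and 1013, a difference of 0.09. Cd81, a tetraspanin of the cell surface, gave 39659 and 39172, a difference of 0.02. Maternally expressed genes of 1 domain thus lay on both sides of 0, and Kcnq1ot1 differed by less than a spot SD with its dim probe and by 0.08 with its bright one.

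The Peg3 domain, also on chromosome 7, was dim on both arrays. Peg3, a zinc finger protein with roles in growth and maternal behaviour, gave 124 and 127 with its brighter probe, a difference of 0.07. Its other probe gave 6.83, not well above background, and 12.8, at least 1.56-fold higher in Baf53b-expressing cells. Zim1, a maternally expressed zinc finger gene, had a probe with 9.04, not well above background, and 15.1, at least 1.72-fold higher, while its second probe was well above background on neither. Each bound compares the brighter value with the dim one, or with the dimmest detected probe of that array (a signal of 8.45 and 9.75) where this was brighter. The 2 probes were 3.12% of the member probes, and 2.18% of all probes were seen only in Baf53b-expressing cells. None was seen only in Baf53a-expressing cells, against 0.959% of all probes. Usp29, a ubiquitin protease next to Peg3, gave 18.5 and 15.6, a difference of -0.20 that was within a spot SD of 0.27. The 2 bounds and Usp29 all rest on signals under 20, close to background, in a range of brightness where the SD of the differences over all probes was 0.324.

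Of the genes outside the large domains, Plagl1 showed the widest disagreement among probes after Meg3. Plagl1, a zinc finger regulator of other imprinted genes, had 4 probes, with 181 and 226, 76.1 and 81.6, 110.1 and 102, and 91.2 and 80.6. Their differences were 0.36, 0.14, -0.07 and -0.14, so the gene value of 0.08 is an average over probes that point both ways. Sfmbt2, a Polycomb-group protein of the extraembryonic tissues, gave 152 and 179.8, and 58.4 and 62.3, with a gene value of 0.21. Gnas, the stimulatory G protein subunit, gave 12815 and 11499.9 with its bright probe and 21.9 and 25.5 with a dim one, and the gene value of 0.07 had the opposite sign to the bright probe at -0.11. Impact, a regulator of translation under stress, gave 5589 and 5299, and 70.9 and 77.7, with a gene value of 0.07. Grb10, an adaptor that dampens insulin signalling, gave 385 and 363, a difference of -0.04. The single genes left, from lowest to highest, were Mcts2 (-0.12), Rasgrf1 (-0.07), Nnat (-0.02), Zrsr1 (-0.01), Slc38a4 (0.11) and Inpp5f (0.12). Mcts2 and Zrsr1 are retrocopies of genes elsewhere in the genome, and how far their probes also bind RNA of the parent genes was not tested.

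In all, 14 members had over 1 probe measured on both arrays. All probes lay on the same side of 0 in 6 of them, Dlk1, Mest, Peg10, Peg12, Sfmbt2 and Snrpn. In the other 8 the probes of a gene pointed both ways, with ranges up to 0.56 for Meg3 and 0.50 for Plagl1. Such ranges are as large as the largest gene values of the members. Magel2 and Dio3 had 1 probe each, so probes could not be compared for them.

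A second list of imprinted genes was read in the same way. Of 42 listed, 33 were measured on both arrays, with a median of 0.03 and 17 (51.5%) above 0, against 49.1% of all genes. The 3 at least 25% higher were Dcn (75.1 and 94.2, a difference of 0.37), Klf14 (33.3 and 42.1, 0.38) and Smoc1 (126 and 157, 0.36), and none was as much lower. Of the 25 factors that set or keep imprints, all were measured, with a median of 0.03. Zfp57, the gene of the factor that binds the hexamer shown above, was the one past 0.32 in either direction, and it was lower in Baf53b-expressing cells. Its probes gave 583 and 399, and 6204 and 4963, differences of -0.51 and -0.28, with a gene value of -0.39. Its partner Trim28 gave 62407 and 60022, a difference of -0.01, and the maintenance methyltransferase gene Dnmt1 gave 2004 and 1825, a difference of -0.09.

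Markers of extraembryonic cells differed between the arrays in the same direction as most members. All 11 primitive endoderm markers measured (of 12) were above 0, with a median of 0.26, and Dab2 (108 and 138, a difference of 0.40) was at least 25% higher. Their summed processed signal was 26027 with Baf53a and 30983 with Baf53b, of which Lama1 made up 84.6% and 85.0%, and 4021 and 4656 without it. Of 13 trophoblast markers, 11 were measured and 10 of these were above 0, with a median of 0.25. Their summed signals were 313704 and 351911, of which Gcm1 made up 85.0% and 83.8%. Gcm1 had 4 probes, of which 1 was lower in Baf53b-expressing cells, at -0.39, and without Gcm1 the sums were 46924 and 57119. The Gcm1 probes ran from a signal of 30.4 to 133383 with Baf53a, and why they differ this much was not tested. Krt8, Krt7, Plac1, Gata3 and Krt18 of that list were at least 25% higher. Elf5 and Tpbpa, like Ttr of the endoderm list, were well above background on neither array. Over all genes measured, 49.1% were above 0 and 5.58% were at least 25% higher. The fibroblast list had a median of 0.19 over 8 genes, with Acta2 and Dcn at least 25% higher and Postn not well above background. Its summed signals were 21188 and 20788, and 2976 and 3051 without Fn1, which made up 86.0% and 85.3%. Medians were -0.04 for mesoderm and -0.02 for neural markers. The part of these lists in the values of the imprinted genes, above 0 (as Peg10, Ascl2 and Sfmbt2) or below (as Mest and Cdkn1c), was not tested. In bulk RNA, fewer cells with a transcript and less of it per cell cannot be told apart.

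**Figure D5:**
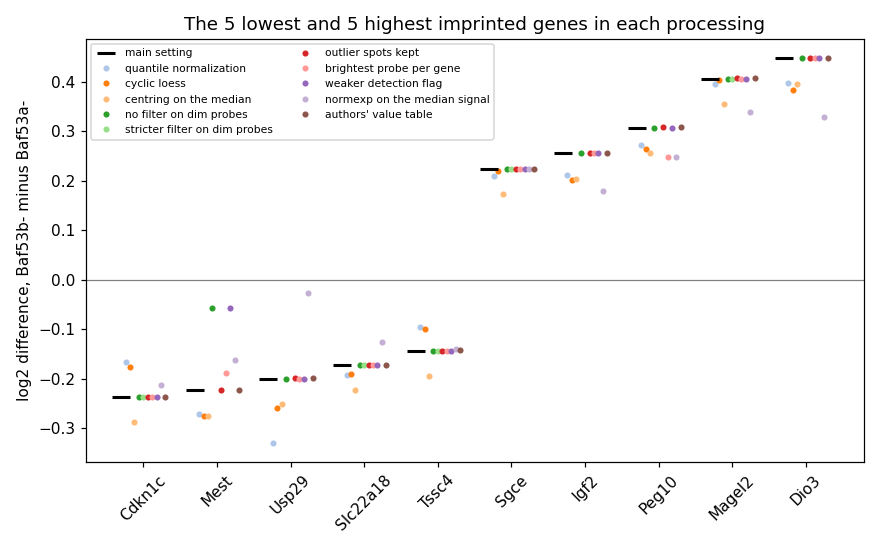
Log2 difference, Baf53b- minus Baf53a-expressing cells, of the 5 lowest and 5 highest imprinted genes under the processing used in the text (bars) and each alternative (dots). In the settings that measure them, Magel2 stays between 0.34 and 0.41, Dio3 between 0.33 and 0.45 and Cdkn1c between -0.29 and -0.17, while Usp29 runs from -0.33 to -0.03 and Mest reaches -0.06 when dim probes are kept.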

How the data were processed

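The authors extracted the scans with Agilent Feature Extraction 11.0.1.1 at its default settings and deposited the intensity of each spot after background subtraction, with its flags, for a design whose annotation is mm9. A second table deposited by the authors holds a ratio of each probe's signal to 1 number per array (1160 and 1126), within 0.1% of the spots' values for 100% of 30479 probes. Its scaling is not given in the sources used here, and it served as an alternative.

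Here control spots and spots marked as outliers (173 and 143) were left out, log2 intensities of a probe's spots were averaged, and each array was shifted to put its 75th percentile at 0. No spot was saturated. A probe counted as measured when at least 50% of its spots were well above background on both arrays, and a gene's value is the mean over its measured probes. The modelled error of member probes ran from 10.0% to 16.3%. Precision is limited by there being 1 array per condition.

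Gene names came from a RefSeq table of GRCm38.p6, by unversioned accession. It matched 27410 of 39411 gene probes and, as its build is not mm9, gave names only. Promoter windows were used for 34 members, without H19, Peg10, Cdkn1c, Impact and Sgce. Chromosome 18, which holds Impact, was left out of the member windows but not out of the windows of all genes. The members, their domains and alleles (from general knowledge) and the other lists were chosen with earlier results of these data known. The rule gave signals for the 5 largest and 5 smallest differences, genes with over 1 probe, lead genes of a domain and genes seen on 1 array. Other members' signals complete their domains. Of other lists, genes at least 25% apart and 3 of the ES cell markers were named, with the genes that carry most of a marker list's summed signal, and Trim28 and Dnmt1 were added after their values were seen. Alternatives were quantile normalization, cyclic loess, centring on the median, dim probes kept or filtered more strictly, outlier spots retained, the brightest probe per gene, a weaker detection flag, normexp (offset 50) on the median signal, and the authors' table. Python 3.11.15 and R 4.3.3 with limma 3.58.1 were used, and the steps were tested on simulated data.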

Additional observations from a re-analysis of the deposited data

How the results depend on the processing

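With 1 array per condition no setting gives a test, and no result could be checked by leaving out a replicate. No paired analysis was possible because each group held 1 sample. The members' median of 0.0702 was 0.0407 with quantile normalization, 0.0442 with cyclic loess, 0.0191 with centring on the median and 0.0375 with a stricter filter on dim probes, which left 22 members. The median of the maternally expressed members, 0.0241, was -0.0107 with cyclic loess, -0.0270 with centring and 0.0649 with normexp, and that of the paternally expressed ones, 0.0732, was 0.0222 with centring. The count of members at least 25% higher was 4 with no filter on dim probes and with the weaker detection flag, where Peg3 and Zim1 joined Magel2 and Dio3, 3 with the brightest probe per gene, where Plagl1 joined them, and 1 (Magel2) with the stricter filter. The count at least as far (0.32 on the log2 scale) below 0 was 1 (Usp29) with quantile normalization. The filters changed which probes entered, centring moved every gene down by the same 0.0511, and the cause of the other shifts was not tested. The median of all genes was -0.0032 in the main setting, -0.0543 with centring and -0.0343 with the stricter filter. No member was 2-fold apart in any setting run. Single members changed sign in 4 of 36 under centring (Airn, Mkrn3, Kcnq1ot1 and Cd81), in 5 with the brightest probe per gene (Ppp1r9a, Mkrn3, Meg3, Impact and Gnas), in 4 with normexp, in 4 of 22 under the stricter filter, in 3 with cyclic loess and in 2 each with quantile normalization, no filter and the weaker flag. None changed sign with outlier spots kept or with the authors' table. Signal over background limited Slc22a3, Zim1, Usp29, Nnat and Rasgrf1 most.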
